A study of Mus musculus with 10 samples.

Results

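The genes described here are 10 targets of the glucocorticoid receptor: Fkbp5, Tsc22d3, Klf9, Sgk1, Ddit4, Cebpd, Zbtb16, Errfi1, Mt1 and Mt2. They were chosen by name, as genes that glucocorticoids are known to induce directly, and earlier results of these data were known at that choice. Each was matched by its Ensembl identifier to a row of a count table of 48526 genes. All 10 had a row. The study set out to learn what endothelial cells of the aorta do after acute mental stress. The stressed mice, of the strain labelled ApoE, underwent it for 3 h a day on 3 days in a row before the aorta was taken (5 libraries). The non-stressed mice carried the same strain label (5 libraries). In both groups cells were isolated by fluorescence-activated sorting as aortic endothelial cells. The labels give no more of the genotype, no age and no sex. They do not say how many animals went into a library, and p-values therefore cover the spread among these libraries alone, which may be technical in part.

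Glucocorticoids, mainly corticosterone in mice, are released by the adrenal cortex under stress and bind the glucocorticoid receptor, which is held in the cytosol by chaperones. The bound receptor enters the nucleus and binds DNA at glucocorticoid response elements, pairs of short inverted repeats separated by a spacer. Genes induced in this way include brakes on the receptor itself, mediators of its anti-inflammatory effect, kinases and regulators of growth signalling, transcription factors, and metal-binding proteins. Circulating leukocytes and vascular cells both carry the receptor.

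The promoters are shown because the letters by which this receptor is known to bind can be looked for in them. RefSeq windows of 250 bases before a transcript start (GRCm38.p6, the assembly behind mm10) were found for 8 of the 10 genes, 16 windows in all; Cebpd and Zbtb16 are named only. Both strands were searched for the full palindrome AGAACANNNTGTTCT, for the looser palindrome GNACANNNTGTNC, which lies inside it, and for the single repeat AGAACA, which is also part of the full palindrome. Capitals mark every match. Fkbp5 is shown at chr17:28486150-28486399 (minus strand), Tsc22d3 at its most upstream start, chrX:140600523-140600772 (minus strand), Sgk1 at 1 of its 6 windows, chr10:21993640-21993889 (plus strand), and Mt1 at chr8:94178839-94179088 (plus strand). The Fkbp5 and Sgk1 windows lie inside the annotated genes, whose upstream ends are at 28517527 and 21882184. Which starts these cells use was not tested.
Fkbp5: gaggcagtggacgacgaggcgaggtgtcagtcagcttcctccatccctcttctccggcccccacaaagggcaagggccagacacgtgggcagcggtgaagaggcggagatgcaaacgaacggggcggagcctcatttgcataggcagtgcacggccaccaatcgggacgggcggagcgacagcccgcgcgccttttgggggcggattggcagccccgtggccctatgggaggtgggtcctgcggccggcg
Tsc22d3: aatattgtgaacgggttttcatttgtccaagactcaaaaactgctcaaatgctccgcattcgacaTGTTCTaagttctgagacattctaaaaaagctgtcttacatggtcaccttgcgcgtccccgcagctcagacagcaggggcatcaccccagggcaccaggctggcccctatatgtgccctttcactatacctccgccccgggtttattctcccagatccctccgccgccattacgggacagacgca
Sgk1: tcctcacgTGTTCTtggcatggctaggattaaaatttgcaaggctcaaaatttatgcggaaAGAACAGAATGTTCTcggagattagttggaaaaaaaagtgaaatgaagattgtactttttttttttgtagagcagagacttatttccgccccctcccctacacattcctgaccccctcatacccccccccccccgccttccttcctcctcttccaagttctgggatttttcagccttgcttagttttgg
Mt1: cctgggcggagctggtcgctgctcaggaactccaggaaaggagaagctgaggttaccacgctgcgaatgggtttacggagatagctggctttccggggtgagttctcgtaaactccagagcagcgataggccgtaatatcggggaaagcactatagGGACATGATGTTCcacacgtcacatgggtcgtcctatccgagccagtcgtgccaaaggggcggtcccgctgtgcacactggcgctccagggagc

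The full palindrome stood in 1 of the 16 windows, 1 of the 6 of Sgk1, as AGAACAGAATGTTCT from 189 to 175 bases before the start. Of all 32536 distinct windows of this length 3 held it, 0.00922%. The looser palindrome also stood in the Mt1 window, as GGACATGATGTTC from 94 to 82 bases before the start, and 0.390% of all windows held it. The single repeat was found in 1 of 3 windows of Tsc22d3, the one shown, and in 3 of 6 windows of Sgk1, against 16.0% of all windows. The Sgk1 window with the full palindrome is among these, and that palindrome contains the repeat. No match was found in the windows of Fkbp5, Klf9, Ddit4, Errfi1 or Mt2, which says only that these letters are absent from these bases. A match is a description of the sequence and not a measured binding site.

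Total counts ran from 18020220 to 30168890 in the stressed libraries and from 24373063 to 38237346 in the non-stressed ones. Levels are given in CPM, a gene's counts scaled by the library total, and the 3 counts that a count of 0 allows correspond to 0.0785 CPM in the deepest and 0.166 CPM in the shallowest library, for counting error only. The label of endothelial cells was checked against 12 endothelial markers: Tek, Cldn5 and Emcn had 0 reads in every library and 1 of the 12, Vwf, reached 1 CPM in all libraries. The summed level of the 12 was 20.9 to 47.8 CPM in stressed and 21.6 to 47.9 CPM in non-stressed libraries. Most of it was Vwf, at 16.7 to 44.8 CPM and 16.0 to 42.3 CPM. In the same groups 10 macrophage and monocyte markers summed to 29246 to 36206 CPM and 24536 to 36479 CPM. The data therefore go against the label, and the results describe libraries rich in transcripts of myeloid cells. As in any bulk sample, fewer cells of a type and less RNA per cell cannot be told apart. Xist, expressed where an X chromosome is inactivated, had reads in 4 libraries and the Y-linked Ddx3y in the other 6, with 2 stressed and 2 non-stressed libraries in the first set and 3 of each in the second, so that the libraries of a group did not all come from 1 animal.

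The glucocorticoid-induced genes lay between equal group means and a fitted fold of 3.22 in the stressed libraries, and no member passed the threshold. For Fkbp5 and Mt1 the 5 stressed libraries lay above the 5 non-stressed ones, for Cebpd 4 of them did, and Sgk1, Ddit4 and Zbtb16 had nearly equal group means. Counts were tested with edgeR's quasi-likelihood test, fitted on all 13334 genes that passed its filter on low counts; the threshold was a Benjamini-Hochberg adjusted p of 0.05. That filter kept 9 of the 10 members, all but Mt2. Of these 9, 0 were called, against 0.0075% of all genes tested (1 gene, Chil3, a chitinase-like protein of myeloid cells); DESeq2 called 1, Fkbp5, and limma-voom 0. At an unadjusted p under 0.05 there were 3 members, Fkbp5, Cebpd and Mt1, all higher in stressed libraries, against 2.59% of all genes tested higher and 2.95% lower at that p. The fitted log2 fold change was above 0 for 9 of 9, although 2 of these values were 0.00 and 0.02, against 50.9% of all genes tested; with the neutrophil or erythroid marker level as a covariate it was above 0 for 6, and for 6 to 9 on leaving out 1 library. Their median was 0.28, beside 0.00447 for all genes tested. Because the set was chosen with earlier results of these data known, these shares are a description only. Group means and single values below are CPM scaled by TMM factors, and a fold change is stressed over non-stressed.

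**Figure D1:**
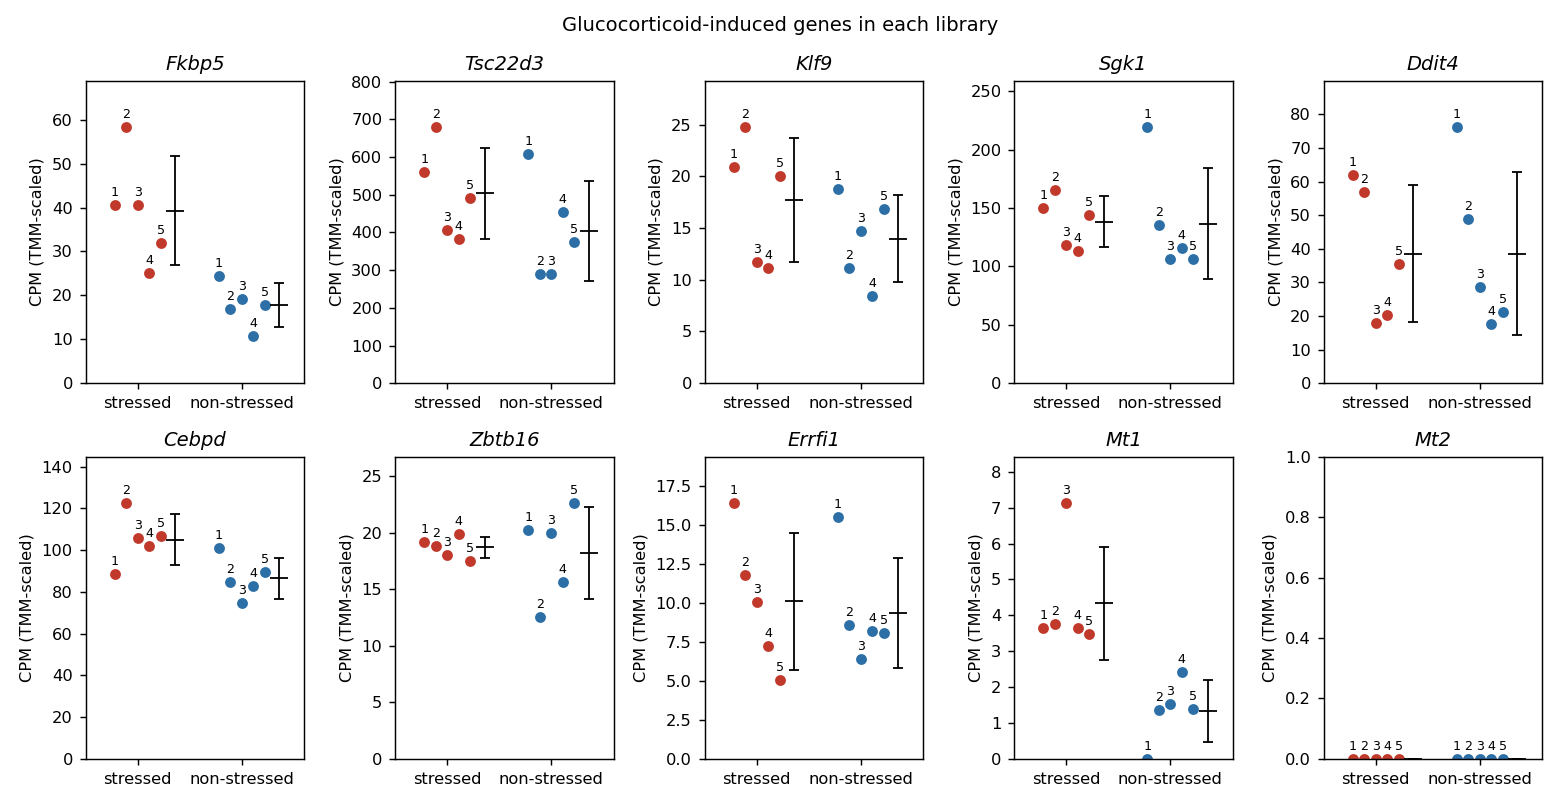
Level of each glucocorticoid-induced gene in each library, in CPM scaled by TMM factors, on linear axes from 0. Points are libraries with their replicate number, stressed in red and non-stressed in blue; the black mark and bar beside each group are its mean ± SD (n = 5). Fkbp5 and Mt1 do not overlap between the groups, Sgk1 and Ddit4 are highest in non-stressed replicate 1, and Mt2 has no reads.

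Fkbp5 encodes FKBP51, a co-chaperone that lowers the affinity of the glucocorticoid receptor for its hormone, so that its induction forms a feedback brake. The gene (ENSMUSG00000024222) is annotated in mm10 at chromosome 17, 28399094 to 28517527, on the minus strand, and overlaps an annotated antisense transcript that the count table does not list. Its level was 40.6, 58.3, 40.6, 25.1 and 32.0 CPM in stressed replicates 1 to 5, against 24.4, 16.9, 19.1, 10.6 and 17.9 CPM in non-stressed replicates 1 to 5. The groups did not overlap, but stressed replicate 4 lay just above non-stressed replicate 1. Genes with all 5 stressed libraries above all 5 non-stressed ones made up 0.592% of those tested (79 genes), and genes with all 5 below 0.517%, and the members in the first class were Fkbp5 and Mt1. The mean of Fkbp5 was 39.3 ± 12.4 CPM in stressed and 17.8 ± 4.93 CPM in non-stressed libraries (SD, n = 5 each), a 2.21-fold difference with a 95% interval from 1.58 to 3.09. The log2 fold change was 1.14 (SE 0.23, edgeR adjusted p = 0.349).

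Whether Fkbp5 was called depended on the model, and it passed in 4 of 25 alternatives. With RLE, upper-quartile and no factors it did not pass (edgeR adjusted p = 0.382, 0.337 and 0.396). Fits in which it passed include DESeq2 (adjusted p = 0.00392, where 0.114% of genes tested were called), edgeR without a low-count filter (adjusted p = 0.0106, 0.0430% called) and edgeR with 1 surrogate variable (adjusted p = 0.00544, 0.0675% called); with limma-voom it did not pass (adjusted p = 0.168, 0.0150% called). Leaving out 1 library at a time gave log2 fold changes between 0.95 and 1.28, with adjusted p between 0.174 and 0.841. The difference between mean log2 CPM was 1.37 in the 6 libraries with Y-linked transcripts and 0.78 in the 4 with Xist. Erythroid markers summed to 1172 to 5528 CPM in stressed and 1333 to 2781 CPM in non-stressed libraries (6 of 7 at 1 CPM or more throughout). Neutrophil markers summed to 1056 to 2304 CPM and 802 to 2472 CPM in these groups (6 of 10). With the mean erythroid or neutrophil marker level as a covariate the log2 fold change of Fkbp5 was 0.99 in either fit (adjusted p = 0.957 with the erythroid level, and 0.0761 with the neutrophil level, where 0.112% of genes tested were called).

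Tsc22d3 encodes GILZ, the glucocorticoid-induced leucine zipper, which carries part of the anti-inflammatory action of glucocorticoids in leukocytes. It was the most abundant member also per length, at 104.5 CPM per kb of exon over all libraries (range 66.7 to 157). The gene (ENSMUSG00000031431) lies on chromosome X from 140539528 to 140600659, minus strand. Its level was 561, 680, 405, 383 and 491 CPM in stressed replicates 1 to 5, against 609, 291, 289, 455 and 375 CPM in non-stressed replicates 1 to 5. The groups overlapped: non-stressed replicate 1 was the second highest of all libraries, and 1 stressed library lay above it. All 5 stressed libraries lay above the non-stressed median of 375 CPM. The mean was 504 ± 121 CPM in stressed and 404 ± 134 CPM in non-stressed libraries (SD, n = 5 each), with a log2 fold change of 0.32 (SE 0.20, 95% interval -0.10 to 0.74, edgeR adjusted p = 0.943). The interval takes in no difference as well as a fold of 1.67. Without non-stressed replicate 1 the log2 fold change was 0.51 (adjusted p = 0.794) and without stressed replicate 2 it was 0.18 (adjusted p = 0.954). The difference between mean log2 CPM was 0.49 in the libraries with Y-linked transcripts and 0.14 in those with Xist.

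The transcription factors Cebpd, Klf9 and Zbtb16 differed in how they divided the groups. Cebpd encodes C/EBP delta, a factor of acute-phase and myeloid gene expression. Its level was 88.4, 123, 106, 102 and 107 CPM in stressed replicates 1 to 5, against 101, 84.7, 74.6, 82.7 and 89.4 CPM in non-stressed replicates 1 to 5. Stressed replicates 2 to 5 lay above every non-stressed library and stressed replicate 1 lay within their range. For Cebpd the log2 fold change was 0.28 (SE 0.10, 95% interval 0.06 to 0.50, edgeR adjusted p = 0.874). The difference between mean log2 CPM was 0.45 in the libraries with Y-linked transcripts and 0.03 in those with Xist. Cebpd (ENSMUSG00000071637, chromosome 16 from 15887286 to 15891031, plus strand) overlaps Spidr on the other strand, which had 5982 reads in all against 25434 of Cebpd. The libraries were made with a stranded kit, but no source used here gives the strand setting of the counting, and reads of the overlap are uncertain.

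Klf9 (chromosome 19, 23141226 to 23168134, plus strand) encodes a Krüppel-like factor that glucocorticoids and thyroid hormone induce. Its level was 20.9, 24.7, 11.7, 11.1 and 19.99 CPM in stressed replicates 1 to 5, against 18.7, 11.1, 14.7, 8.39 and 16.8 CPM in non-stressed replicates 1 to 5. Stressed replicates 1, 2 and 5 lay above every non-stressed library, whereas stressed replicates 3 and 4 lay below the non-stressed median of 14.7 CPM. Its fitted log2 fold change was 0.34 (SE 0.26, 95% interval -0.21 to 0.89, edgeR adjusted p = 0.950). Zbtb16 (chromosome 9, 48654297 to 48836222, minus strand) encodes PLZF, a zinc finger factor of progenitors and innate-like lymphocytes that glucocorticoids strongly induce in several human cell types. It stood at 17.5 to 19.9 CPM in stressed libraries and at 12.5 to 22.6 CPM in non-stressed ones. The stressed libraries all lay inside the non-stressed range, with a coefficient of variation of 5.11% against 22.3%. The log2 fold change was 0.04 (SE 0.16, 95% interval -0.31 to 0.39, edgeR adjusted p = 0.996), an upper bound of 1.31-fold.

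Sgk1, Ddit4 and Errfi1 act on kinase signalling. Sgk1 (chromosome 10, 21882184 to 21999903, plus strand) encodes the serum- and glucocorticoid-regulated kinase, which controls ion channels and shares targets with Akt. In stressed replicates 1 to 5 it stood at 149.9, 165, 118, 113 and 144 CPM, against 219, 135, 107, 116 and 106 CPM in non-stressed replicates 1 to 5. Non-stressed replicate 1 was the highest of all libraries and the stressed values all lay inside the non-stressed range. Between the groups the log2 fold change was 0.02 (SE 0.18, 95% interval -0.37 to 0.40, edgeR adjusted p = 0.998), and 0.25 without non-stressed replicate 1. Of the 6 promoter windows of Sgk1, 1 held the full palindrome.

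Ddit4 (chromosome 10, 59949669 to 59951834, minus strand) encodes REDD1, an inhibitor of mTORC1 that is induced by glucocorticoids, hypoxia and energy stress. Its level was 62.1, 56.9, 18.01, 20.3 and 35.6 CPM in stressed replicates 1 to 5, against 76.2, 48.7, 28.8, 17.7 and 21.2 CPM in non-stressed replicates 1 to 5. It spread within each group more than any other member with reads in every library, with a coefficient of variation of 52.7% in stressed and 63.0% in non-stressed libraries. Its log2 fold change was 0.0025 (SE 0.40, edgeR adjusted p = 0.9999), with a 95% interval from -0.85 to 0.86, which leaves room for a difference of up to 1.81-fold in either direction. Without non-stressed replicate 1 it was 0.40, and without stressed replicate 1 it was -0.24. Errfi1 (chromosome 4, 150853919 to 150868892, plus strand) encodes MIG6, a feedback inhibitor of the EGF receptor. It stood at 5.06 to 16.4 CPM in stressed and 6.41 to 15.5 CPM in non-stressed libraries, with its highest levels in replicate 1 of each group. Errfi1 had a log2 fold change of 0.11 (SE 0.31, 95% interval -0.55 to 0.78, edgeR adjusted p = 0.992), and -0.14 without stressed replicate 1.

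The metallothioneins Mt1 and Mt2 bind zinc and copper and are induced by both metals and glucocorticoids. Mt1 (ENSMUSG00000031765, chromosome 8 from 94179082 to 94180327, plus strand) had 699 reads over all libraries. Its level was 3.64, 3.77, 7.14, 3.64 and 3.47 CPM in stressed replicates 1 to 5, against 0, 1.36, 1.53, 2.41 and 1.39 CPM in non-stressed replicates 1 to 5. The groups did not overlap, and stressed replicate 3 was about double the other stressed libraries. The mean was 4.33 ± 1.57 CPM in stressed and 1.34 ± 0.865 CPM in non-stressed libraries (SD, n = 5 each). The log2 fold change was 1.69 (SE 0.70, 95% interval 0.20 to 3.17, edgeR adjusted p = 0.874), and 1.44 without stressed replicate 3. Non-stressed replicate 1 had 0 of 24373063 counts, which allows up to 0.123 CPM; without it the log2 fold change was 1.36. A library at 0 was found for 12.4% of the 429 genes with 600 to 800 reads in total.

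Mt2 (ENSMUSG00000031762, chromosome 8 from 94172664 to 94173568, plus strand) had 0 reads in all 10 libraries and was not tested. The limit that a count of 0 allows is 0.0785 to 0.166 CPM per library. Mt2 lies beside Mt1 and overlaps an annotated antisense transcript, Gm45774, on the minus strand, which the count table does not list. Why Mt2 had no counts was not tested, and the count of 0 need not mean that no transcript was present. Of 5 other genes of the metal response that were tested, 0 passed, and their log2 fold changes lay between -0.17 and -0.00168 in edgeR. They include the metal sensor Mtf1 and the zinc exporter Slc30a1.

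**Figure D2:**
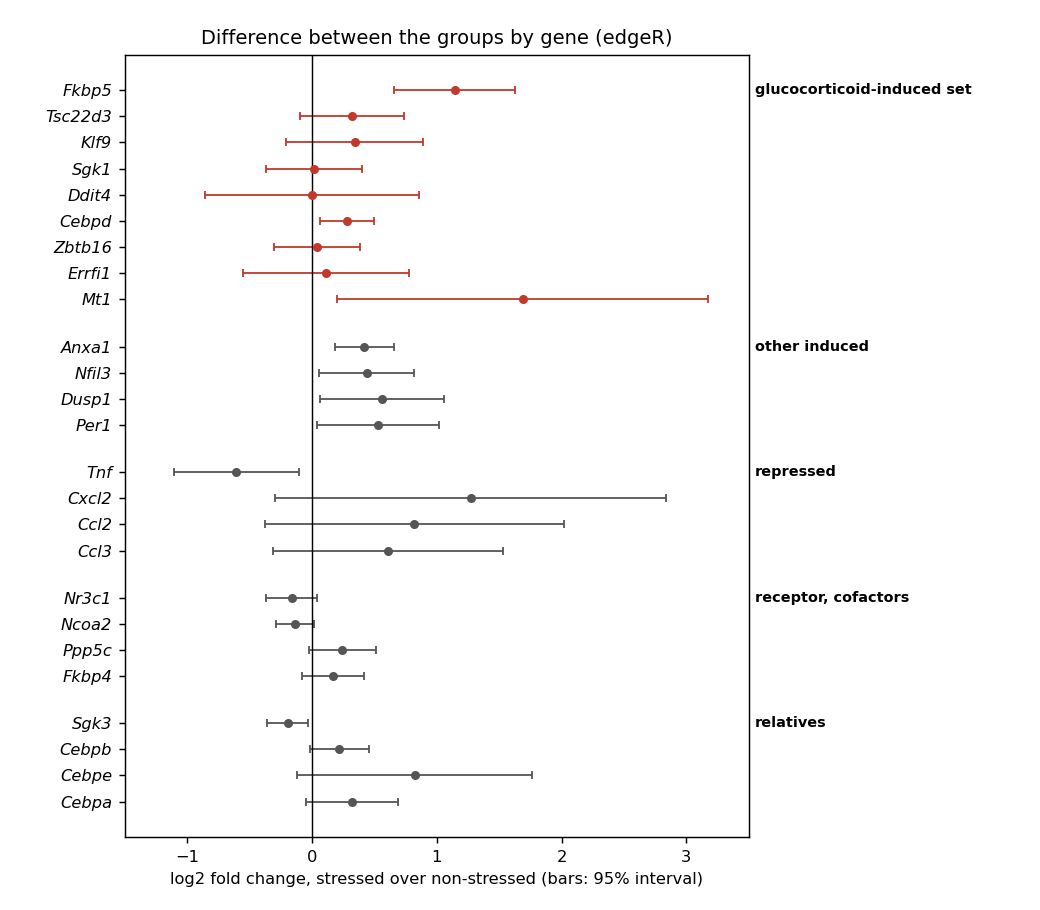
Log2 fold change of stressed over non-stressed libraries by gene, from edgeR, with 95% intervals as bars. Red marks the glucocorticoid-induced set and grey named genes of the other lists. The intervals of Fkbp5, Cebpd and Mt1 lie above 0, that of Ddit4 runs from -0.85 to 0.86, and none of the genes passed the adjusted threshold.

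Within the libraries with Y-linked transcripts and within those with Xist, the difference between mean log2 CPM kept its sign for Klf9 (0.41 and 0.20) and Mt1 (1.39 and 3.46, the second with the library at 0). It had opposite signs for Sgk1 (0.14 and -0.05), Zbtb16 (0.27 and -0.23), Errfi1 (0.30 and -0.29) and Ddit4 (-0.08 and 0.23). These sets hold 3 and 2 libraries a group, and whether they differ was not tested.

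Across libraries, the members peaked in different libraries but often ranked high in the same ones. Whether they varied together was not tested. Of the 9 members with reads, 4 were highest in stressed replicate 2 (Fkbp5, Tsc22d3, Klf9 and Cebpd) and 2 in non-stressed replicate 1 (Sgk1 and Ddit4). Stressed replicate 2 was among the 3 highest libraries for 8 of 9 members, stressed replicate 1 for 7 and non-stressed replicate 1 for 5. Stressed replicate 4 and non-stressed replicates 2 and 4 were among the 3 highest for 0 of 9. The 3 libraries in which members most often ranked high also held the largest sums of neutrophil markers, 2304 CPM in stressed replicate 2, 1817 CPM in stressed replicate 1 and 2472 CPM in non-stressed replicate 1; the other libraries held 1056 to 1111 CPM where stressed and 802 to 1431 CPM where non-stressed. The same 3 libraries also held the largest sums of endothelial markers, 47.6, 47.8 and 47.9 CPM in that order, with non-stressed replicate 3 next at 46.3 CPM. Their macrophage and monocyte sums were 29246, 29790 and 24536 CPM, where the highest library held 36479 CPM. The part of any of these cell types in the members' order was not tested. Levels per kb of exon, the union of a gene's annotated exons, fell into 3 ranges. Tsc22d3 stood alone at the top. Sgk1 (mean 28.0, range 21.6 to 44.7 CPM per kb), Cebpd (25.6, 19.9 to 32.7) and Ddit4 (21.96, 10.1 to 43.4) overlapped each other. Zbtb16 (3.49), Klf9 (3.28), Fkbp5 (3.02), Errfi1 (2.72) and Mt1 (2.28 CPM per kb) also overlapped, over libraries from 0 to 6.16 CPM per kb.

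**Figure D3:**
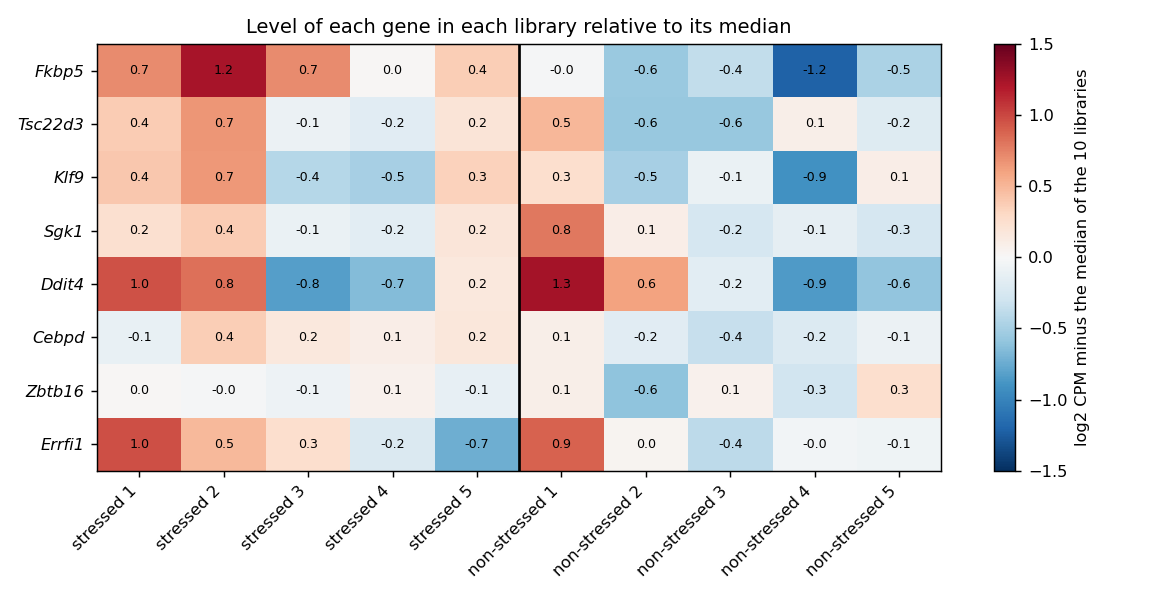
Log2 CPM of the 8 members with reads in every library minus the gene's median over the 10 libraries (colour and printed value), stressed libraries left and non-stressed right. Fkbp5 is red or white in the stressed libraries and blue or white in the non-stressed ones, while Ddit4 is high in stressed replicates 1 and 2 and in non-stressed replicates 1 and 2.

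The genes nearest in pattern were sought for Fkbp5 and Tsc22d3 among 8383 named protein-coding genes averaging at least 3 log2 CPM. The measure was the root mean square distance of standardised log2 CPM over the 10 libraries, which takes in the difference between the groups. Among those nearest to Fkbp5 were Dpep2, a membrane dipeptidase (distance 0.338), and Atp11a, a phospholipid flippase (0.371), where the median gene lay at 1.42. Dpep2 had a log2 fold change of 0.88 (SE 0.19, edgeR adjusted p = 0.429). Nearest to Tsc22d3 were Nrp2, the semaphorin and VEGF co-receptor neuropilin-2 (0.373), Tcn2, the vitamin B12 carrier transcobalamin (0.447), and Tiparp, an ADP-ribosyltransferase (0.464), where the median gene lay at 1.44. Fkbp5 and Tsc22d3 lay 0.92 apart by this measure. Among the members with reads in every library, the nearest to Fkbp5 was Cebpd at 0.70. Mt1 was left out of this comparison.

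Of 28 other genes that glucocorticoids induce, 23 were tested: 16 had a log2 fold change above 0, 7 below 0 and 0 passed in edgeR, with a median of 0.10 beside 0.00447 for all genes tested. At an unadjusted p under 0.05 there were 5 higher and 0 lower, against 2.59% higher and 2.95% lower of all genes tested. This list and the others below were also chosen with earlier results of these data known. Anxa1, which encodes annexin A1, a mediator of glucocorticoid action on leukocytes, stood at 538 ± 77.6 CPM in stressed and 402 ± 54.7 CPM in non-stressed libraries (SD, n = 5 each; log2 fold change 0.42, SE 0.11, edgeR adjusted p = 0.684). The phosphatase gene Dusp1, the clock gene Per1 and the bZIP repressor gene Nfil3 had log2 fold changes of 0.56 (SE 0.23), 0.53 (SE 0.23) and 0.44 (SE 0.18), each with an edgeR adjusted p of 0.874. Their unadjusted p depended on the fit. For Dusp1 it was 0.0727 with DESeq2, 0.0960 with a robust dispersion and 0.174 with the erythroid covariate, and for Per1 0.0795, 0.0941 and 0.209 in the same order. Nfil3 had 0.146 with the erythroid covariate, and Anxa1 was under 0.05 in each of these 3 fits. Other fits gave lower unadjusted p. With limma-voom it was 0.000887 for Dusp1 and 0.00439 for Per1, and with edgeR without a low-count filter 0.00296 and 0.00513. Neither gene passed the adjusted threshold there. Lcn2, a neutrophil granule gene of this list chosen after its value was seen, stood at 26.5 ± 18.8 CPM in stressed and 19.0 ± 19.6 CPM in non-stressed libraries (SD, n = 5 each; log2 fold change 0.48, SE 0.67, edgeR adjusted p = 0.971). It passed in 1 fit, that with 1 surrogate variable (1.21, adjusted p = 0.0430). Of 18 inflammatory genes that glucocorticoids repress, 12 were tested, 9 above 0, 3 below 0 and 0 called, with a median of 0.10. Tnf, the tumour necrosis factor gene, stood at 12.4 ± 3.88 CPM in stressed and 18.9 ± 4.84 CPM in non-stressed libraries (SD, n = 5 each; log2 fold change -0.61, SE 0.24, edgeR adjusted p = 0.874). The chemokine genes next by p lay on the other side of 0, Cxcl2 at 1.27 (SE 0.73, edgeR adjusted p = 0.940), Ccl2 at 0.82 (SE 0.56, adjusted p = 0.950) and Ccl3 at 0.61 (SE 0.43, adjusted p = 0.950).

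Nr3c1, the gene of the glucocorticoid receptor, was counted in every library. It stood at 192, 168, 135, 171 and 152 CPM in stressed replicates 1 to 5, against 204, 176, 178, 196 and 163 CPM in non-stressed replicates 1 to 5. Stressed replicates 3 and 5 lay below every non-stressed library and the others overlapped them (log2 fold change -0.16, SE 0.10, 95% interval -0.37 to 0.04, edgeR adjusted p = 0.940). Of 16 tested genes of the receptor, its chaperones and its cofactors, 8 lay above 0, 8 below 0 and 0 passed, with a median of 0.01. Fkbp4, whose product FKBP52 acts against FKBP51 on the receptor, had 0.17 (SE 0.12). The phosphatase gene Ppp5c had 0.24 (SE 0.13) and the coactivator gene Ncoa2 -0.14 (SE 0.07).

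Of 19 close relatives of the members, 15 were tested, 10 above 0, 5 below 0 and 0 called, with a median of 0.09. Sgk3 had a log2 fold change of -0.19 (SE 0.08, edgeR adjusted p = 0.874), beside 0.02 for Sgk1. The C/EBP genes Cebpa, Cebpb and Cebpe had 0.32 (SE 0.17), 0.22 (SE 0.11) and 0.82 (SE 0.44), beside 0.28 for Cebpd. Whether members and relatives differed was not tested.

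**Figure D4:**
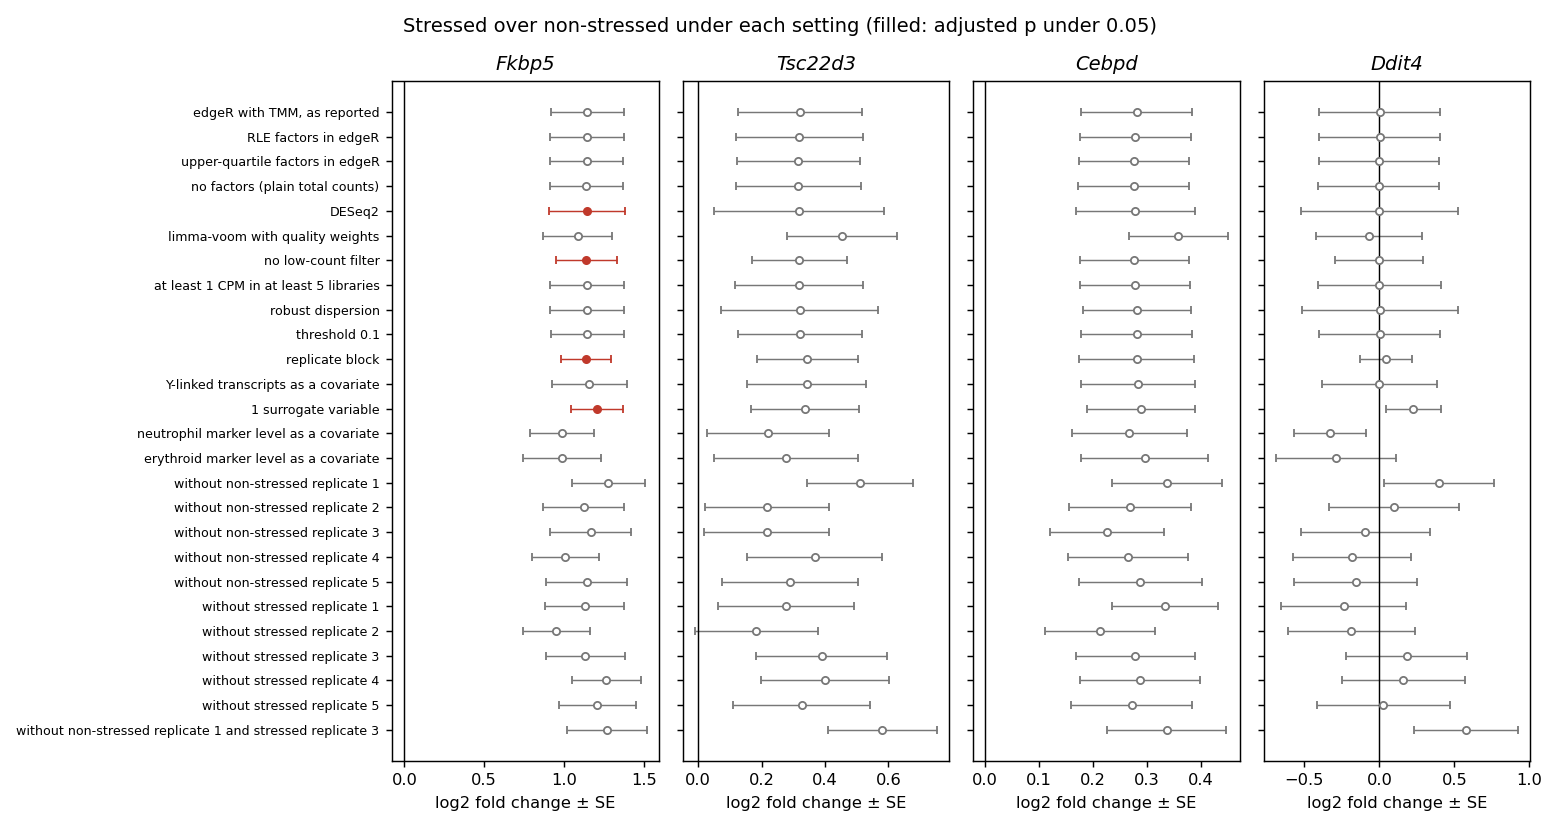
Log2 fold change ± SE of 4 members under each setting, down the page; filled red points passed an adjusted p of 0.05. Fkbp5 lies between 0.95 and 1.28 throughout and passed in 4 settings, Tsc22d3 and Cebpd stay above 0 without passing, and Ddit4 lies on both sides of 0.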

How the data were processed

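RNA of 10 samples labelled aortic endothelial cells was sequenced. Per the labels' protocols, the kits were Arcturus PicoPure for RNA and TruSeq Stranded for libraries. The submitters' processing notes name mm10, featureCounts, STAR and Trimmomatic; tool versions, strandedness of counting and gene models were not given in the sources used here. The deposited table holds raw counts per Ensembl gene, made by the authors and not normalized; 48058 of 48526 identifiers matched a symbol. Groups came from the sample titles. Coordinates are from GENCODE (mm10).

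Testing of these deposited counts used edgeR 4.0.16 under R 4.3.3 (filterByExpr with a minimum count of 10, TMM factors, intercept and group, quasi-likelihood F test, Benjamini-Hochberg adjustment over 13334 genes, which held 99.9% of the counts). The script was tested on simulated data. A standard error is the log2 fold change divided by the square root of F. Differences of mean log2 CPM used a prior count of 2, and marker covariates are means of log2(CPM + 1). The 10 genes and the other lists were chosen with earlier results of these data known. Named were the 10 members, Nr3c1, Chil3, up to 4 genes of each other list with the smallest p, and the 3 genes nearest in pattern to Fkbp5 and to Tsc22d3, of which 1 is not reported here. Alternatives were RLE, upper-quartile and no factors, DESeq2 1.42.0, weighted limma-voom (limma 3.58.1), a robust dispersion, 2 other filters, the replicate number as a block, a threshold of 0.1, Y-linked transcripts (over 100 reads of Ddx3y), 1 surrogate variable (sva 3.50.0), neutrophil or erythroid marker level, and leaving out each library; leaving out non-stressed replicate 1 and stressed replicate 3 together was chosen after seeing the data.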

Additional observations from a re-analysis of the deposited data

Results flagged for a closer look

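Within groups of 5, the gap between the highest or lowest library and its nearest neighbour was set against the whole range (Dixon's 95% critical value 0.710) for 36 named genes, 70 groups in all. Chance alone gives about 1 in 20 such groups, and 5 exceeded it. Non-stressed replicate 1 stood apart for Sgk1 at 219 CPM, where the other non-stressed libraries held 106 to 135 CPM. The same library stood apart for Errfi1 at 15.5 CPM, with the others at 6.41 to 8.61 CPM. Stressed replicate 3 stood apart for Mt1 at 7.14 CPM, with the other stressed libraries at 3.47 to 3.77 CPM, and for Cebpb at 698 CPM, with the others at 479 to 542 CPM. Non-stressed replicate 4 stood apart for Ccl3 at 18.3 CPM, with the other non-stressed libraries at 5.81 to 6.49 CPM. The immediate early gene Egr1 was at 445 CPM of the plain library total in stressed replicate 3 and at 2.97 to 12.05 CPM in the other libraries; it was chosen after its value was seen, and its part in these levels was not tested.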

How the results depend on the processing

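Fkbp5, Tsc22d3, Klf9, Cebpd and Mt1 had a log2 fold change above 0 under all 25 alternatives that cover them. The threshold of 0.1 and the robust dispersion kept the fold changes of the main edgeR fit and could not change a sign. Of these genes Fkbp5 alone passed 0.05 in any alternative. Its log2 fold change was 1.14 with DESeq2, 1.14 with no filter on low counts, 1.14 under the replicate block (adjusted p = 0.0279, 0.0300% of genes tested called) and 1.20 with 1 surrogate variable, and in these 4 fits 1 member was called. Genes called numbered 19 with DESeq2, 10 without a low-count filter, 4 with the block, 9 with the surrogate variable, 15 with the neutrophil covariate and 2 with limma-voom, beside 1; leaving out 1 library gave 1 to 2. The titles number replicates 1 to 5 in each group, but numbers need not pair the samples. Deviations from the group means of same-numbered libraries correlated at 0.24, 0.16, -0.15, 0.29 and 0.30. Of the stressed libraries, 3 of 5 correlated best with their own number. Y-linked transcripts were found in replicates 2, 3 and 4 of both groups, and Xist in replicates 1 and 5 of both. Vwf stood at 44.8, 40.8, 36.6, 16.7 and 18.4 CPM of the plain total in stressed replicates 1 to 5. In non-stressed replicates 1 to 5 it stood at 42.3, 38.3, 41.3, 20.5 and 16.0 CPM. The main edgeR fit did not use the numbers, and whether they pair the samples was not settled.

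Ddit4 turned negative with upper-quartile factors (-0.0018), plain totals (-0.0038), limma-voom (-0.070), no low-count filter (-0.0025), the 1 CPM filter (-0.00013) and the neutrophil (-0.33) and erythroid (-0.29) covariates, and those covariates also turned Sgk1 (-0.094 and -0.093) and Errfi1 (-0.16 and -0.10) negative; the cause was not tested. Leaving out 1 library gave -0.24 to 0.40 for Ddit4, -0.066 to 0.25 for Sgk1, -0.14 to 0.36 for Errfi1 and -0.074 to 0.13 for Zbtb16. Separated members numbered 2 throughout, Fkbp5 and Mt1, but 3 with Cebpd when stressed replicate 1 was left out, which also raised the separated genes to 202 higher and 177 lower, since fewer libraries have to separate. Without non-stressed replicate 1 and stressed replicate 3, 0 members were called, 6 had an unadjusted p under 0.05 (all higher), beside 3, where 1.93% of all genes tested were higher and 2.37% lower at that p; Ddit4 stood at 0.58 and Ccl2 at -0.019. Leaving out 1 library gave 0.22 to 1.29 for Ccl2 and -0.16 to 0.011 for Slc30a1. Mt1 rests on 699 reads in all.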
